A study of Mus musculus with 8 samples.

Results

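Nphs1, Plekhh2 and Cubn are genes best known from kidney epithelium, and their RNA was measured here in mouse mammary tumours treated with GrB-Fc-KS49 or with IgG. They were taken by symbol, as 3 of the 26709 genes of the deposited count table, and they were chosen by how consistently their levels differed between these same treatments. Among the 19718 genes tested they held places 8, 13 and 19 by unadjusted p-value in the comparison of the treatments. Their differences between the treatments are therefore given as a description, without a test.

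Nphs1 encodes nephrin, an immunoglobulin superfamily adhesion protein that spans the slit diaphragm between the foot processes of kidney podocytes and binds CD2AP and the Kirrel proteins. Plekhh2 encodes a podocyte-enriched protein with pleckstrin homology, MyTH4 and FERM domains that binds actin and the focal adhesion protein Hic-5, the product of Tgfb1i1. Cubn encodes cubilin, a large peripheral membrane receptor built mainly of CUB domains. It works with amnionless and megalin in the proximal tubule, intestine and yolk sac to take up albumin, transferrin and the intrinsic factor complex of vitamin B12.

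The tumours were formed by EMT6, a murine mammary carcinoma line whose genotype is given as WT, in syngeneic Balb/c hosts. GrB-Fc-KS49, a human granzyme B fusion protein aimed at the membrane protein EMP2, was given in 1 group of 4 tumours and IgG in the other group of 4, on 3 occasions within 10 days. The age and sex of the hosts, the doses, and whether each tumour came from a different animal are not stated in these sources, so tests measure the spread between these tumours, which may in part be technical. GrB-Fc-KS49 replicate 3 and IgG replicate 1 carry a title suffix, U, whose meaning is likewise not given. Total estimated counts ran from 74.6 to 80.9 M in GrB-Fc-KS49 tumours and from 74.0 to 82.6 M in IgG tumours.

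The labels call the material epithelial breast tumour cells. Vim, the mesenchymal intermediate filament vimentin, was the most abundant of the 9 epithelial tumour markers, at 4620 ± 338 CPM (counts scaled to 1e6 per library) in GrB-Fc-KS49 tumours, against 4965 ± 210 CPM in IgG tumours (SD, n = 4 each). Krt8, a keratin of simple epithelia, averaged 528 ± 108 CPM in GrB-Fc-KS49 tumours, against 444 ± 23.3 CPM in IgG tumours. Epcam, an epithelial adhesion molecule chosen for mention after its values were seen, was low, at 8.16 ± 5.77 CPM in GrB-Fc-KS49 tumours, against 4.10 ± 0.612 CPM in IgG tumours. Emp2, the target of the agent, averaged 135.2 ± 29.7 CPM in GrB-Fc-KS49 tumours, against 134.5 ± 13.4 CPM in IgG tumours. These and all CPM below are TMM-scaled (trimmed mean of M-values).

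Across the 19718 genes tested, edgeR's quasi-likelihood test with Benjamini-Hochberg adjustment called 0 genes at an adjusted p under 0.05, a share of 0%, with 0.0619 as the smallest adjusted p. It listed 6915 genes, 35.1% of those tested, at an unadjusted p under 0.05. DESeq2 called 4747 genes and limma-voom called 1 at the adjusted threshold. With GrB-Fc-KS49 replicate 1 left out, edgeR called 1260 genes, and with replicate 4 left out it called 3447. No gene of the comparison is therefore described as changed below.

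Nphs1 stands apart from Plekhh2 and Cubn in its sequence, and the stretch concerned is shown here because it bears on how the Nphs1 count is read. In the GENCODE M21 annotation (GRCm38), Nphs1 has 5 transcripts, and exon 1 of the retained-intron transcript Nphs1-204, which is 1987 bases long, lies over the processed pseudogene Rps12-ps4 on the opposite strand for 183 bases. That overlap is at chr7:30484915-30485097. Its minus strand is printed below from the start codon position of the Rps12-like sequence, beside the matching coding stretch of Rps12-203, a transcript on chromosome 10 that encodes a protein of the small ribosomal subunit. Capitals mark the 2 bases that Rps12 has and the Nphs1 exon lacks, and the other 183 bases are identical.
Nphs1-204, minus strand: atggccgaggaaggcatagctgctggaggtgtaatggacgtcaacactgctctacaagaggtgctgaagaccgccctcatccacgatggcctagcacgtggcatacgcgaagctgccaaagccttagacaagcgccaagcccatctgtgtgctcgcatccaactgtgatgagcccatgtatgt
Rps12-203, coding: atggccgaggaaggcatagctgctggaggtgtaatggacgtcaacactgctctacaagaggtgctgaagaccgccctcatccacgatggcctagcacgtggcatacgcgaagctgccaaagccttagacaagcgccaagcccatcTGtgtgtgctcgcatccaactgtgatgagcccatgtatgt

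The match continued upstream of the start codon, so that 266 aligned bases of Nphs1-204 were 99.2% identical to Rps12-203 on the opposite strand. A search of all GENCODE M21 transcripts at 95% identity over at least 50 bases found 79 other genes that share sequence with an Nphs1 transcript, and 24 of them are named Rps12. Plekhh2 shared such stretches with 32 other genes, of which 0 are named Rps12. Cubn shared one with 1 gene, Gm13270, a long noncoding RNA that overlaps it on the opposite strand. The deposited table, on GRCm39, places Rps12-ps4 at 30184126 to 30184522 within Nphs1, at the same distance from the start of Nphs1 as in GRCm38.

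Nphs1 (ENSMUSG00000006649) lies on chromosome 7, plus strand, from 30157740 to 30186648 of GRCm39. In GrB-Fc-KS49 replicates 1 to 4, its level was 198.9, 157, 152 and 157 CPM, against 104, 111, 102 and 104 CPM in IgG replicates 1 to 4. Every GrB-Fc-KS49 tumour was above every IgG tumour, and GrB-Fc-KS49 replicate 1 was the highest, 28.1% above the mean of the other GrB-Fc-KS49 tumours. The means were 166 ± 21.9 CPM in GrB-Fc-KS49 tumours, against 105 ± 4.14 CPM in IgG tumours (SD, n = 4 each), a log2 fold change of 0.66 with a standard error (SE) of 0.10, or 1.58-fold. In bulk tumour RNA, a difference in the number of cells of a type and a difference in RNA per cell cannot be told apart, which holds for every level below.

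Plekhh2 (ENSMUSG00000040852) lies on chromosome 17, plus strand, from 84819323 to 84929566. In GrB-Fc-KS49 replicates 1 to 4, its level was 20.2, 24.7, 23.4 and 25.2 CPM, against 35.2, 35.5, 39.9 and 32.8 CPM in IgG replicates 1 to 4. Here every GrB-Fc-KS49 tumour was below every IgG tumour, and GrB-Fc-KS49 replicate 1 was the lowest, 17.1% below the mean of the others of its group. The means were 23.4 ± 2.21 CPM in GrB-Fc-KS49 tumours, against 35.8 ± 2.93 CPM in IgG tumours, a log2 fold change of -0.62 (SE 0.09), or 0.652-fold.

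Cubn (ENSMUSG00000026726) lies on chromosome 2, minus strand, from 13281149 to 13496624. In GrB-Fc-KS49 replicates 1 to 4, its level was 2.22, 2.77, 2.43 and 2.95 CPM, against 4.69, 4.63, 5.16 and 4.36 CPM in IgG replicates 1 to 4. The groups were again separate, with all GrB-Fc-KS49 tumours low and replicate 1 the lowest of them, 18.4% below the mean of the others. The means were 2.59 ± 0.330 CPM in GrB-Fc-KS49 tumours, against 4.71 ± 0.331 CPM in IgG tumours, a log2 fold change of -0.86 (SE 0.14), or 0.550-fold. The estimated counts behind these values were 177 to 388 per library for Cubn, against 1617 to 2913 for Plekhh2 and 7380 to 15887 for Nphs1. Of all genes tested, 25.7% had groups that did not overlap, 10.3% with GrB-Fc-KS49 higher and 15.3% with GrB-Fc-KS49 lower. Since the contrast chose the 3 genes, their separation is read as no more than a description.

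**Figure D1:**
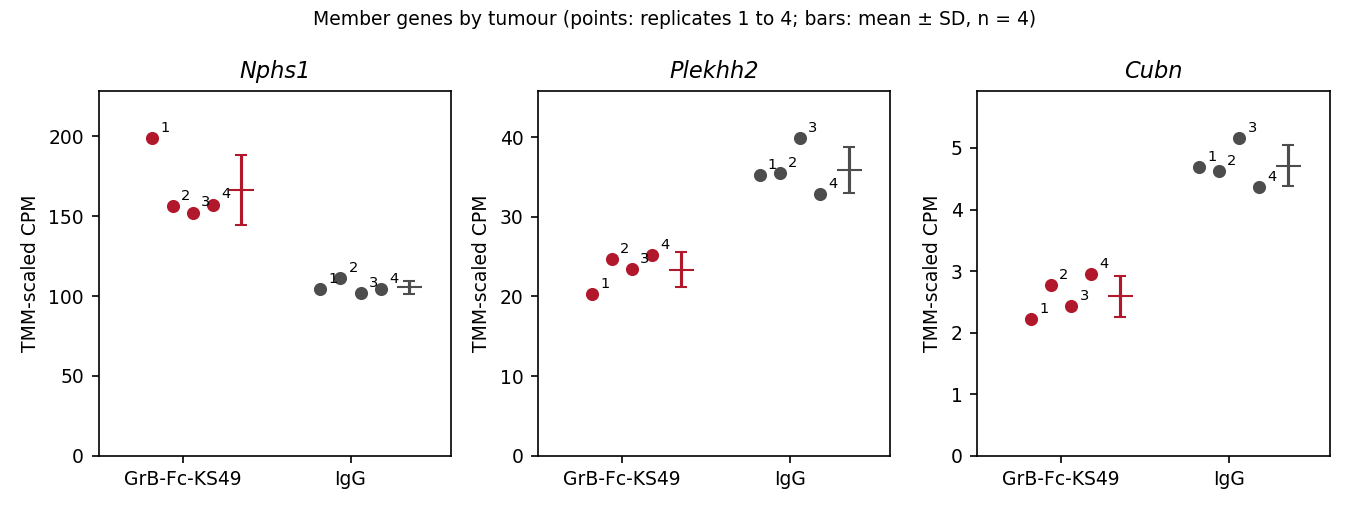
TMM-scaled CPM of Nphs1, Plekhh2 and Cubn (vertical axes, each from 0) in the 4 GrB-Fc-KS49 tumours and the 4 IgG tumours, with points numbered by replicate and bars for the mean ± SD. GrB-Fc-KS49 tumours lie above IgG tumours for Nphs1 (152 to 198.9 against 102 to 111 CPM) and below them for Plekhh2 (20.2 to 25.2 against 32.8 to 39.9 CPM) and Cubn (2.22 to 2.95 against 4.36 to 5.16 CPM).

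Per kilobase of the longest transcript, which allows the genes to be set side by side, Nphs1 had a level of 36.1 CPM per kb in GrB-Fc-KS49 tumours, against 22.9 CPM per kb in IgG tumours. Plekhh2 had 3.396 CPM per kb in GrB-Fc-KS49 tumours, against 5.21 CPM per kb in IgG tumours. Cubn had 0.230 CPM per kb in GrB-Fc-KS49 tumours, against 0.418 CPM per kb in IgG tumours. The order Nphs1, Plekhh2, Cubn held in both groups by a wide margin over the spread between tumours. The lengths used were 4608 bases for Nphs1, 6882 for Plekhh2 and 11262 for Cubn, and reads of Nphs1 that fell in the short Rps12-like exon would be spread over too long a gene by this measure.

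The same table gives counts of the Rps12 family to set beside those of Nphs1. It holds 17 rows named Rps12, of which the processed pseudogenes Rps12-ps3 and Rps12l1 held 48.5% and 47.8% of the summed counts and Rps12 itself 3.55%. The row of Rps12-ps4, the copy inside Nphs1, held at most 8.71 counts in a library. Estimated counts of Nphs1 had a fractional part above 0.05 in 8 of 8 libraries, while those of Plekhh2 were whole to within 0.01 in all of them. Those of Cubn also had such a fractional part in 8 of 8 libraries. Cubn shared sequence with 0 genes named Rps12, but 211 bases with Gm13270 at 100% identity. Of all rows of the table, 52.2% to 54.0% were not whole in a library, with smaller fractional parts included. Fractional counts were thus common, and their source was not tested.

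The 17 rows summed to 1564, 1107, 969.85 and 1009 CPM in the GrB-Fc-KS49 tumours (replicates 1 to 4), against 673, 776, 737 and 732 CPM in IgG replicates 1 to 4. The order of the groups was that of Nphs1, and GrB-Fc-KS49 replicate 1 was again the highest. For every 100 counts in these rows, Nphs1 had 12.7, 14.1, 15.7 and 15.6 counts in GrB-Fc-KS49 tumours, against 15.5, 14.35, 13.8 and 14.2 counts in IgG tumours. These ratios overlapped, with means of 14.5 ± 1.4 in GrB-Fc-KS49 tumours and 14.5 ± 0.707 in IgG tumours (SD, n = 4 each), and the log2 difference between the groups was 0.0028. Relative to the Rps12 rows, a comparison chosen after the data were seen, the Nphs1 difference was thus smaller than the spread between tumours. Division by any gene with a similar shift, such as Rpl41 (log2 fold change 0.62), would shrink the difference in a like way. The share of Nphs1 reads that lie in the Rps12-like exon was not tested, since read positions are not part of the files used here, and how the counting treated strand is not stated.

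**Figure D2:**
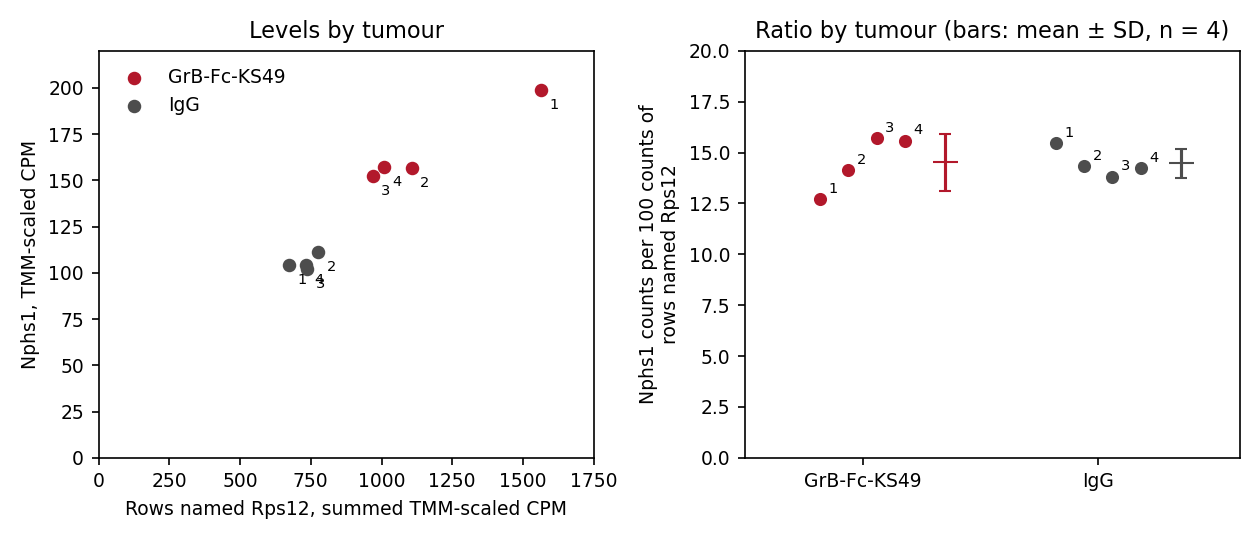
Left, Nphs1 (vertical axis, TMM-scaled CPM) against the summed level of the 17 rows named Rps12 (horizontal axis, TMM-scaled CPM), 1 numbered point per tumour. Right, Nphs1 counts per 100 counts of these rows by group, with bars for the mean ± SD: the 4 GrB-Fc-KS49 tumours span 12.7 to 15.7 and the 4 IgG tumours 13.8 to 15.5.

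The Rps12 rows with most counts differed in the same direction as Nphs1. Rps12-ps3 averaged 564 ± 131 CPM in GrB-Fc-KS49 tumours, against 352 ± 17 CPM in IgG tumours, a log2 fold change of 0.68 (SE 0.15, edgeR adjusted p = 0.0619). Rps12l1 had a log2 fold change of 0.67 (SE 0.15, adjusted p = 0.0619), and Rps12 one of 0.56 (SE 0.15, adjusted p = 0.0628). Reads of these near-identical copies cannot be assigned to 1 of them with certainty, so their single levels are uncertain. Among 79 cytoplasmic ribosomal protein genes, a list drawn up after these values were seen, 75 were higher in GrB-Fc-KS49 tumours, with a median log2 fold change of 0.36 against 0.03 over all genes tested. At an unadjusted p under 0.05, 61 were higher and 1 lower, or 78.5% of the list in either direction against 35.1% of all genes tested, of which 17.3% were higher and 17.8% lower.

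The genes most like Nphs1 over the 8 libraries, by Pearson's r of log2 CPM among genes with a mean of at least 1 CPM, were AI413582 (r = 0.999), Rpl13a, Tspo, Guk1 and Rpl41. Rpl13a and Rpl41 encode proteins of the large ribosomal subunit, Tspo a protein of the outer mitochondrial membrane and Guk1 guanylate kinase. AI413582, on chromosome 17, was at 18.2, 14.6, 14.1 and 14.5 CPM in the GrB-Fc-KS49 tumours (replicates 1 to 4), against 9.97, 10.7, 9.78 and 9.81 CPM in IgG replicates 1 to 4. As in Nphs1, replicate 1 was the high one among the GrB-Fc-KS49 tumours and replicate 2 among the IgG tumours. With the group means taken out, AI413582 was still the closest (r = 0.996), followed by Pomp, Taok3, Rplp1 and Ifrd2. Of the 79 ribosomal protein genes, 44 had an r above 0.9 with Nphs1, or 55.7%, against 5.56% of the 12920 genes compared. Rps12 itself had an r of 0.929 with Nphs1, and of 0.899 with the group means taken out, below the closest genes. The r of Nphs1 with Rps12-ps3 and Rps12l1, which held most counts of the Rps12-named rows, is not given here. Since this contrast chose Nphs1, its r over the 8 libraries follows in part from that choice.

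Over the 8 libraries, Plekhh2 and Cubn varied with each other and against Nphs1. Their log2 CPM had an r of 0.99 over the 8 libraries and of 0.94 with the group means taken out, whereas Nphs1 had an r of -0.97 with Plekhh2 and -0.96 with Cubn, and of -0.73 and -0.64 with the group means taken out. These correlations describe 8 libraries in 2 separate groups, share each library's depth and scaling, and carry no test. The contrast of these groups chose Nphs1, Plekhh2 and Cubn, so every r of theirs over the 8 libraries follows in part from that choice. The signs there go with the directions of the group differences. With the group means taken out, the r with Nphs1 was weaker and rests on few tumours. Cul1, the scaffold of SCF ubiquitin ligases, Ccne2, which encodes cyclin E2, and Cep68, a centrosomal protein gene, were among the 5 genes closest to both Plekhh2 and Cubn, with r from 0.991 to 0.997. The remaining gene of each was a zinc finger gene, Zfp729a for Plekhh2 and Zfp644 for Cubn, and each of the 2 genes was itself among the other's closest.

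With the group means taken out, the genes closest to Plekhh2 were Phaf1, Zfp141, Usp45, Atp2c1 and Epb41, with r from 0.974 to 0.992. Those closest to Cubn were Cul1, Smg8, Cd2ap, Nufip2 and Kpna3, with r from 0.985 to 0.991. Cd2ap, which encodes an adaptor that binds nephrin, was thus like Cubn within the groups (r = 0.987). Over the 8 libraries, 11.1% of the 12920 genes had an r above 0.9 with Plekhh2 and 10.2% with Cubn. With the group means taken out, these shares were 1.38% for Plekhh2 and 2.79% for Cubn.

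The partners of nephrin at the slit diaphragm were unevenly present. Kirrel2, whose gene starts 624 bases from Nphs1 on the other strand, had 10 estimated counts over all 8 libraries, below the filter on low counts. That level is too low for the treatments to be compared.

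Kirrel, the gene of the nephrin-binding protein Kirrel1, was abundant, at 113, 174, 219.9 and 208 CPM in the GrB-Fc-KS49 tumours (replicates 1 to 4), against 279, 268, 248 and 252 CPM in IgG replicates 1 to 4. All GrB-Fc-KS49 tumours were below all IgG tumours and replicate 1 was by far the lowest, with a log2 fold change of -0.55 (SE 0.19, edgeR adjusted p = 0.0822). In GrB-Fc-KS49 tumours, Cd2ap was at 72.9, 86.5, 77.45 and 92.4 CPM, against 111, 107, 116 and 101 CPM in IgG tumours. The Cd2ap groups did not overlap either, with a log2 fold change of -0.40 (SE 0.09, adjusted p = 0.0619). Kirrel3, a further Kirrel family gene, overlapped between the groups at 24.6 ± 11.3 CPM in GrB-Fc-KS49 tumours, against 26.7 ± 4.84 CPM in IgG tumours, and so did Podxl, the gene of the podocyte sialomucin podocalyxin, at 30.5 ± 4.30 CPM in GrB-Fc-KS49 tumours, against 27.1 ± 6.09 CPM in IgG tumours.

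Of the 20 slit diaphragm genes listed beside nephrin, 17 were tested, 4 with higher and 13 with lower levels in GrB-Fc-KS49 tumours. At an unadjusted p under 0.05, 0 were higher and 7 lower, or 41.2% in either direction against 35.1% of all genes, and 0 passed adjustment. The median log2 fold change was -0.24, against 0.03 over all genes. Beside Kirrel, the most abundant were Iqgap1, a scaffold of the actin cortex (-0.38, adjusted p = 0.0628), Fat1, a giant protocadherin (-0.49, adjusted p = 0.109), and the polarity gene Pard3 (-0.39, adjusted p = 0.0687), each as a log2 fold change in edgeR's test. Without GrB-Fc-KS49 replicate 1, 4 of the 17 passed edgeR's adjusted threshold, all with lower levels, namely Kirrel, Cd2ap, Pard3 and the tight junction gene Tjp1. That is 23.5% of the list, against 6.32% of all genes in that fit, of which 4.09% were lower.

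Among 18 genes of the podocyte foot process and its actin, all tested, 0 were higher and 6 lower at an unadjusted p under 0.05, with a median log2 fold change of -0.07. That is 33.3% of the list, against 35.1% of all genes in either direction and 17.8% lower. Synpo, which encodes the actin-binding synaptopodin, overlapped between the groups at 134 ± 33.7 CPM in GrB-Fc-KS49 tumours, against 138 ± 15.0 CPM in IgG tumours. Of 18 podocyte identity genes, Tcf21 and Foxd1 had no row in the table and are not analysed here, and 14 were tested. Sema3g, a secreted semaphorin gene, was the only one higher at an unadjusted p under 0.05 (log2 fold change 1.02, adjusted p = 0.0690) and Pla2r1, a phospholipase A2 receptor gene, the only one lower (-0.37, adjusted p = 0.0638), together 14.3% of the list, below the 35.1% of all genes. Wt1, a transcription factor that defines podocytes in the kidney, averaged 1.26 ± 0.546 CPM in GrB-Fc-KS49 tumours, against 1.42 ± 1.18 CPM in IgG tumours. The summed level of the 16 podocyte identity genes with a row was 342 to 386 CPM in GrB-Fc-KS49 tumours, against 326 to 408 CPM in IgG tumours, so the ranges overlapped.

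The 18 tested genes of immunoglobulin superfamily adhesion proteins related to nephrin were evenly split, 9 higher and 9 lower, with a median log2 fold change of 0.01. At an unadjusted p under 0.05, 4 were higher, namely Igsf9, Cadm4, Nectin4 and Bcam, and Kirrel was the only one lower, together 27.8% of the list, below the 35.1% of all genes. Of these, Bcam, which encodes a laminin-binding adhesion protein, had a log2 fold change of 1.53 (SE 0.45, edgeR adjusted p = 0.0662), and Nectin4 one of 1.75 (SE 0.57, adjusted p = 0.0795).

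For Plekhh2, the family members and the binding partner gave smaller or more variable differences. In GrB-Fc-KS49 replicates 1 to 4, Plekhh1 was at 1.98, 3.05, 4.95 and 5.99 CPM, against 6.33, 6.50, 5.85 and 6.31 CPM in IgG replicates 1 to 4. The groups overlapped through GrB-Fc-KS49 replicate 4, and the log2 fold change was -0.65 (SE 0.31, edgeR adjusted p = 0.166). Plekhh3 averaged 14.9 ± 2.30 CPM in GrB-Fc-KS49 tumours, against 15.4 ± 0.922 CPM in IgG tumours, a log2 fold change of -0.04 (SE 0.12). Tgfb1i1, the gene of Hic-5, averaged 42.2 ± 11.4 CPM in GrB-Fc-KS49 tumours, against 53.1 ± 3.87 CPM in IgG tumours, and the groups overlapped (log2 fold change -0.33, SE 0.18, adjusted p = 0.217). Differences between the log2 fold changes of these genes were not tested.

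Among 20 tested genes of proteins with MyTH4 or FERM domains, the domains that Plekhh2 carries, 17 were lower and 3 higher in GrB-Fc-KS49 tumours. At an unadjusted p under 0.05, 10 were lower, or 50% of the list against 17.8% of all genes, and 0 were higher. The median log2 fold change was -0.33, against 0.03 over all genes, and 0 passed adjustment. Msn, which encodes moesin, a linker of actin to the plasma membrane, had a log2 fold change of -0.38 (adjusted p = 0.0745), Myo10, a filopodial myosin gene, one of -0.44 (adjusted p = 0.138) and Frmd6 one of -0.38 (adjusted p = 0.142) in edgeR's test. Tln1, the gene of the integrin activator talin, overlapped between the groups (-0.12, adjusted p = 0.342). Without GrB-Fc-KS49 replicate 1, 9 genes of the list were lower at an unadjusted p under 0.05, or 45% against 15.7% of all genes in that fit. Farp1 alone passed the adjusted threshold there, a share of 5% that is below the 6.32% of all genes.

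The membrane partners of cubilin were nearly absent. Lrp2, the gene of megalin, had 66 counts over all 8 libraries, at 0.0125 to 0.131 CPM in GrB-Fc-KS49 tumours, against 0.0744 to 0.237 CPM in IgG tumours, below the filter. Amn, the gene of amnionless, which anchors cubilin in the membrane, had 85 counts in all, at 0.149 ± 0.0301 CPM in GrB-Fc-KS49 tumours, against 0.119 ± 0.0166 CPM in IgG tumours (log2 fold change 0.33, SE 0.26, edgeR adjusted p = 0.430).

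Dab2, a clathrin adaptor of endocytic receptors such as megalin, was abundant, at 224.5, 254, 262 and 228 CPM in the GrB-Fc-KS49 tumours (replicates 1 to 4), against 302.5, 336, 293 and 294 CPM in IgG replicates 1 to 4. Every GrB-Fc-KS49 tumour was below every IgG tumour, with a log2 fold change of -0.34 (SE 0.08, edgeR adjusted p = 0.0619). Cltc, the gene of the clathrin heavy chain, had a log2 fold change of -0.42 (adjusted p = 0.0645). Over the 15 tested genes of the cubilin complex and apical endocytosis, 1 was higher and 6 lower at an unadjusted p under 0.05, and the median log2 fold change was -0.075. These 7 are 46.7% of the list, against 35.1% of all genes, of which 17.3% were higher and 17.8% lower. Rab11a, a recycling endosome GTPase gene, was the one higher (0.15, adjusted p = 0.104). Without GrB-Fc-KS49 replicate 1, the counts at an unadjusted p under 0.05 were again 1 and 6, or 46.7% against 28% of all genes in that fit. Clcn5, the gene of an endosomal chloride exchanger, was the 1 gene of the list past the adjusted threshold there, with a lower level, a share of 6.67% that is near the 6.32% of all genes.

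Of 12 genes of cubilin ligands and vitamin B12 carriers, Cblif, which encodes intrinsic factor, Gc and Scgb1a1 had no row and are not analysed here. The 7 tested genes were all higher in GrB-Fc-KS49 tumours, 4 of them at an unadjusted p under 0.05, with a median log2 fold change of 0.65. Of all genes tested, 53.2% were higher, 17.3% at an unadjusted p under 0.05, and the median was 0.03. These 4 were Cd320, the transcobalamin receptor gene (0.28, edgeR adjusted p = 0.0628), Trf, the transferrin gene (0.65, adjusted p = 0.105), Lcat, a plasma cholesterol acyltransferase gene (0.58, adjusted p = 0.0686), and Mb, the myoglobin gene of muscle (3.13, adjusted p = 0.112). In GrB-Fc-KS49 tumours, Cd320 was at 14.5, 13.2, 14.55 and 13.5 CPM, against 11.1, 11.6, 11.98 and 11.3 CPM in IgG tumours, with no overlap. Tcn2, the gene of the carrier transcobalamin, overlapped at 27.7 ± 7.72 CPM in GrB-Fc-KS49 tumours, against 25.1 ± 4.24 CPM in IgG tumours. Without GrB-Fc-KS49 replicate 1, 3 of the 7 were higher at an unadjusted p under 0.05, or 42.9% against 12.3% of all genes in that fit, with a median of 0.52. At the adjusted threshold 0 of the 7 passed there.

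Of 19 tested genes of other CUB domain proteins, 6 had higher and 13 lower levels in GrB-Fc-KS49 tumours, with a median log2 fold change of -0.09. At an unadjusted p under 0.05, 2 were higher and 4 lower, or 31.6% of the list, near the 35.1% of all genes. Pcolce, which encodes an enhancer of procollagen processing, was higher (0.31, edgeR adjusted p = 0.0882), while Nrp1, a semaphorin and VEGF receptor gene, was lower (-0.62, adjusted p = 0.0843).

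**Figure D3:**
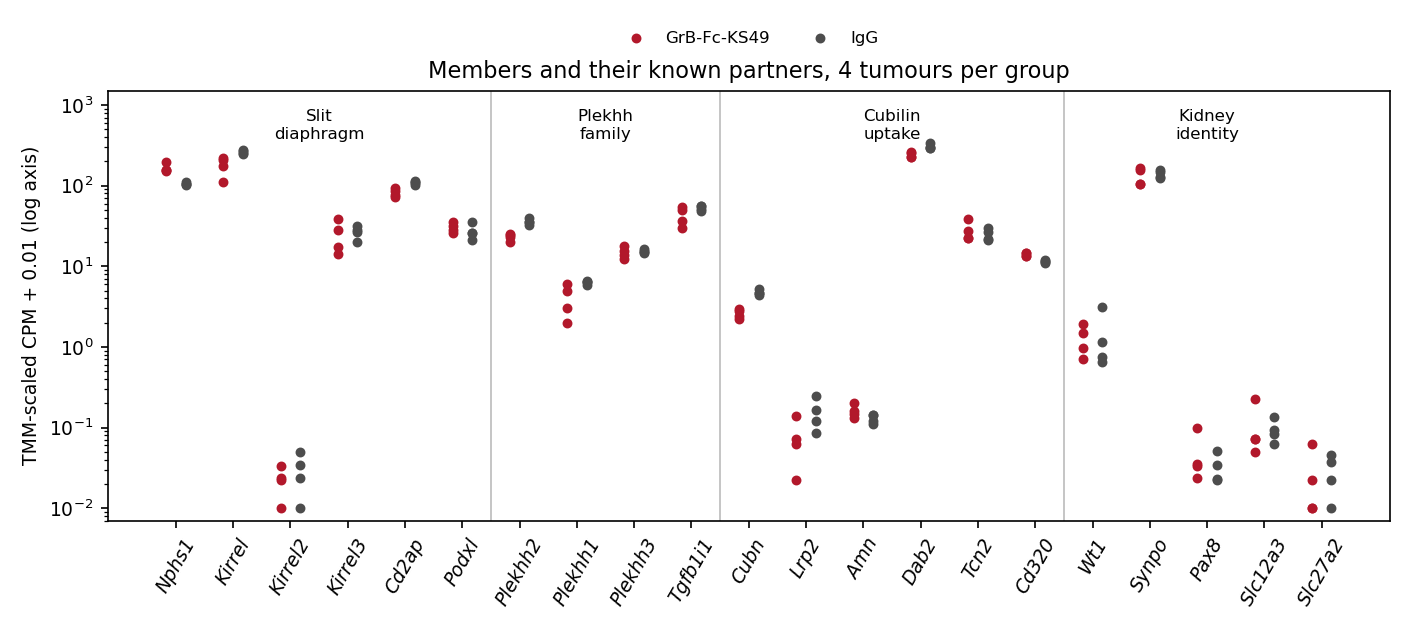
TMM-scaled CPM with 0.01 added (log axis) of Nphs1, Plekhh2, Cubn and genes of their partners and of kidney identity, with 1 point per tumour, GrB-Fc-KS49 left of IgG within each gene. Kirrel2, Lrp2 and Amn lie below 0.25 CPM in all 8 tumours, while Kirrel, Cd2ap and Dab2 lie above 70 CPM in all of them.

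Kidney tubule markers were sparse. Of 24 listed, 13 had no row in the table, which holds no gene with a total under 10 counts: Slc34a1, Slc5a2, Slc22a6, Slc22a8, Slc22a12, Miox, Kap, Acsm2, Umod, Cdh16, Pax2, Hnf4a and Calb1 are not analysed here. The 11 others summed to 73.1 to 119.5 CPM in GrB-Fc-KS49 tumours, against 61.6 to 93.4 CPM in IgG tumours, of which Aqp1, a water channel also made by endothelium, gave 77.0 ± 20.9 CPM in GrB-Fc-KS49 tumours, against 60.7 ± 12.5 CPM in IgG tumours. Of the 8 tested, 6 had higher and 2 lower levels in GrB-Fc-KS49 tumours, with a median log2 fold change of 0.59. At an unadjusted p under 0.05, 2 were higher, or 25% of the list, against 35.1% of all genes in either direction and 17.3% higher. They were Slc13a3 (log2 fold change 0.95, edgeR adjusted p = 0.0750) and Aqp3, an aquaporin also made by skin (4.83, adjusted p = 0.101). Without GrB-Fc-KS49 replicate 1, 4 of the 8 were higher at an unadjusted p under 0.05, or 50% against 12.3% of all genes in that fit. At the adjusted threshold 0 of them passed, against 6.32% of all genes there. That fit keeps GrB-Fc-KS49 replicate 2, in which skin markers summed to 2225 CPM, and their part in these values was not tested. Intestine and yolk sac markers, from the other sites of cubilin, summed to 2.72 to 5.19 CPM in GrB-Fc-KS49 tumours, against 2.92 to 3.43 CPM in IgG tumours over the 7 of 11 with a row.

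Markers of other cell types differed between the tumours in which the 3 genes were measured. Skeletal muscle markers, all 12 with a row, summed to 45.0 to 2567 CPM in GrB-Fc-KS49 tumours, highest in replicate 1, and to 45.6 to 219 CPM in IgG tumours. Skin markers, all 10 with a row, summed to 10.6 to 2225 CPM in GrB-Fc-KS49 tumours, highest in replicate 2, and to 8.62 to 18.1 CPM in IgG tumours. Macrophage markers summed to 1509 to 3302 CPM in GrB-Fc-KS49 tumours, against 1173 to 1516 CPM in IgG tumours, and T cell markers to 15.2 to 81.4 CPM in GrB-Fc-KS49 tumours, against 11.8 to 18.6 CPM in IgG tumours. Both lists had all 10 genes in the table and were highest in GrB-Fc-KS49 replicate 1.

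Adipocyte markers, all 10 with a row, summed to 68.6 to 488.9 CPM in GrB-Fc-KS49 tumours, highest in replicate 3, and to 47.9 to 90.3 CPM in IgG tumours. All 10 had higher levels in GrB-Fc-KS49 tumours, with a median log2 fold change of 1.85, against 0.03 over all genes. At an unadjusted p under 0.05, 3 were higher, or 30% of the list. Of all genes, 35.1% were at that threshold in either direction and 17.3% higher. Markers of cycling cells, all 10 with a row, were low together with Plekhh2 and Cubn, summing to 1135 to 1361 CPM in GrB-Fc-KS49 tumours, against 1370 to 1441 CPM in IgG tumours, with no overlap. Of them, 1 was higher and 5 were lower at an unadjusted p under 0.05, or 60% of the list against 35.1% of all genes. Endothelial and peripheral nerve markers overlapped between the groups in their sums.

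With GrB-Fc-KS49 replicate 1 left out, the log2 fold changes were 0.56 for Nphs1, -0.55 for Plekhh2 and -0.80 for Cubn, each within 1 SD between replicates of the value over all tumours. Macrophage markers summed to 1509 to 2652 CPM in the 3 GrB-Fc-KS49 tumours that remain, 2 of them above every IgG tumour. The part of these other cell types in the 3 differences was not tested.

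Genes near the 3 loci differed in the direction of the nearby member in several cases but not in all. Within 50000 bases of Plekhh2, Thada was also lower, at 11.2, 12.5, 13.8 and 16.98 CPM in the GrB-Fc-KS49 tumours (replicates 1 to 4), against 22.9, 19.4, 18.9 and 19.0 CPM in IgG replicates 1 to 4 (log2 fold change -0.56, SE 0.14, edgeR adjusted p = 0.0619). The nearer gene Dync2li1, 4357 bases from Plekhh2, overlapped between the groups at 7.56 ± 0.756 CPM in GrB-Fc-KS49 tumours, against 7.10 ± 0.317 CPM in IgG tumours. Beside Cubn, Rsu1, a focal adhesion gene 4922 bases away, was at 64.2, 80.0, 90.2 and 94.8 CPM in the GrB-Fc-KS49 tumours, against 112.5, 117, 118 and 112 CPM in IgG tumours.

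The Rsu1 groups did not overlap (log2 fold change -0.48, SE 0.12, edgeR adjusted p = 0.0619). Neither did those of Trdmt1, on the other side, which was lower in GrB-Fc-KS49 tumours (log2 fold change -0.32, adjusted p = 0.178). Gm13270, which overlaps Cubn on the opposite strand, averaged 0.348 ± 0.113 CPM in GrB-Fc-KS49 tumours, against 0.304 ± 0.0553 CPM in IgG tumours. Without stated strand use, reads of the pair cannot be told apart where they overlap. Around Nphs1, the myeloid and lymphoid adaptor genes Tyrobp and Hcst had log2 fold changes of 0.68 and 1.31 and the NF-kB regulator Nfkbid one of 1.03, all with overlapping groups and with adjusted p of 0.134, 0.0969 and 0.0975. Aplp1 (0.51, adjusted p = 0.188) and Arhgap33 (-0.22, adjusted p = 0.427) also overlapped.

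Plekhh2 and Cubn have long transcripts of low GC content, 48.3% and 46.4%, against 56.4% for Nphs1, and libraries can differ in how they recover such transcripts. A smooth trend with transcript length and GC content, fitted in each library over 19341 genes, gave by itself a log2 difference between the groups of 0.02 for Nphs1, -0.18 for Plekhh2 and -0.24 for Cubn. With that trend removed, the log2 fold changes were 0.64 (SE 0.11) for Nphs1, -0.44 (SE 0.09) for Plekhh2 and -0.63 (SE 0.14) for Cubn. The groups stayed apart for all 3 genes. The trend alone amounted to 29.3% of the Plekhh2 difference and 27.5% of the Cubn difference, and 3.30% of that of Nphs1. The Nphs1 trend was taken at the length and GC content of its longest transcript, 4608 bases. It would not describe reads that fell in the short Rps12-like exon. Of the genes with an unadjusted p under 0.05, 33.3% were higher in GrB-Fc-KS49 tumours under this correction, against 49.2% without it. The counts over the gene lists above were not repeated with the trend removed. Some listed genes have long transcripts, such as Fat1 (14814 bases) and Myo10 (8125 bases).

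**Figure D4:**
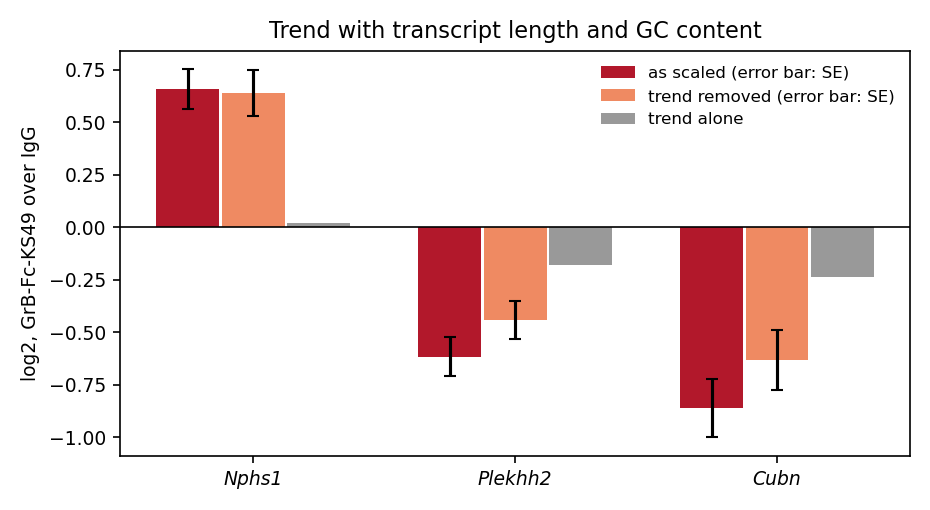
Log2 fold change of GrB-Fc-KS49 over IgG (vertical axis) for Nphs1, Plekhh2 and Cubn, as scaled (red, error bar SE), with the trend with transcript length and GC content removed (orange, error bar SE), and the trend alone (grey). The value of Nphs1 goes with a trend of 0.02, taken at the length and GC content of its longest transcript. The trend takes -0.18 for Plekhh2 and -0.24 for Cubn and leaves -0.44 and -0.63.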

How the data were processed

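RNA of 8 tumours was sequenced, 4 per treatment, grouped by the treatment in the labels. Per the labels' protocols, libraries were made from enriched, fragmented mRNA with the KAPA Stranded mRNA-Seq kit, with dUTP in the second cDNA strand. Per the submitters' processing notes, bcl2fastq 2.19.1.403 and STAR were used and the build was GRCm39. The quantifier, the annotation release and the handling of strand were not given in the sources used here, so how reads of near-identical or antisense genes were divided is unknown. The authors deposited estimated counts per gene, and a CPM table that equals these counts, with 0.0001 added, scaled to 1e6 per library.

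The estimated counts were rounded to whole numbers and filtered with filterByExpr. They were scaled by TMM and tested with edgeR 4.0.16 (R 4.3.3, robust quasi-likelihood, group as the only term) under Benjamini-Hochberg adjustment over 19718 genes. Replicates differed far beyond sampling noise (chi-square per gene 28.5 to 332), so none was merged. Replicate numbers follow accession order and pair nothing. Correlations used log2 CPM with a prior count of 2. Transcript length, GC content, exons and sequences came from GENCODE M21 (GRCm38), searched with BLAST+ 2.17.0. Gene coordinates are those of the deposited table, 1-based.

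Alternatives were other scaling, other filters, DESeq2 1.42.0, limma 3.58.1 (voom, and log2 of CPM plus 1 or 0.25), libraries left out, the U suffix, and removal of the trend with transcript length and GC content (mgcv 1.9.3). The test was first run on simulated counts with known changes, drawn independently with the same dispersion for every gene. That run does not show how the test behaves on the spread between these tumours. The 3 genes and all lists were chosen with earlier results of these data known. Named genes were the 3 members, genes within 50000 bases, the 5 genes most like each, the most abundant genes of each list, fixed partners, and genes that make up a count of at most 5. One gene of the fixed lists is not reported here by name.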

Additional observations from a re-analysis of the deposited data

Results flagged for a closer look

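In 32 genes and 10 summed levels or ratios, each group of 4 tumours was searched for a tumour far from the other 3 of its group, by Dixon's ratio of gap to range at the 95% level. Of 84 groups, 9 held such a tumour, where chance flags about 1 in 20 groups, and the genes are not independent of each other. GrB-Fc-KS49 replicate 1 was the tumour in 5 of them.

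In GrB-Fc-KS49 replicate 1, Nphs1 reached 198.9 CPM, against 152 to 157 CPM in the other GrB-Fc-KS49 tumours. AI413582, the gene most like Nphs1, was at 18.22 CPM in that replicate, against 14.1 to 14.6 CPM in the others of its group. Rpl13a was at 930.9 CPM there, against 736 to 747 CPM, and Rps12 at 54.04 CPM, against 34.2 to 36.7 CPM. The summed level of skeletal muscle markers was 2567 CPM in the same replicate, against 45.0 to 412 CPM in the others of its group.

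In GrB-Fc-KS49 replicate 2, skin markers summed to 2225 CPM, against 10.6 to 22.6 CPM, and intestine and yolk sac markers to 5.193 CPM, against 2.72 to 3.08 CPM, in the other GrB-Fc-KS49 tumours. Among IgG tumours, Rps12 was low in replicate 1, at 23.48 CPM, against 28.2 to 28.6 CPM. Thada, a neighbour of Plekhh2, was high in that replicate, at 22.91 CPM, against 18.9 to 19.4 CPM in the other IgG tumours.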

How the results depend on the processing

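The direction of all 3 genes was kept under the 20 alternatives fixed for each. The log2 fold change of Nphs1 ran from 0.56 to 0.72, that of Plekhh2 from -0.66 to -0.44 and that of Cubn from -0.93 to -0.63. Values beyond 1 SD between replicates were -0.65 for Cubn on log2(CPM + 1), a scale that by construction shrinks low genes, and -0.44 for Plekhh2 and -0.63 for Cubn with the trend with length and GC content removed. Relative to the Rps12 rows, an alternative chosen after the data were seen, Nphs1 had 0.0028. With 1 library left out at a time, the ranges were 0.56 to 0.70 for Nphs1, -0.66 to -0.55 for Plekhh2 and -0.93 to -0.80 for Cubn.

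The number of genes called at an adjusted p under 0.05 was 4747 with DESeq2, 1 with limma-voom and 0 to 3447 with 1 library left out, against 0 in edgeR, and the cause was not tested. Under other settings it was 0. Genes at an unadjusted p under 0.05 numbered 5134 to 7845, and those whose groups did not overlap 3409 to 7160, against 6915 and 5062. Of the genes at an unadjusted p under 0.05, 61.4% were higher with upper quartile scaling and 33.3% with the trend removed, against 49.2%. Counts over the gene lists without GrB-Fc-KS49 replicate 1 were also added after the data were seen. No paired analysis was possible because the labels give no replicate numbers that the groups share. Cubn rests on 177 to 388 counts per library, and Kirrel2 and Lrp2 were too shallow to compare.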
